A study of Arabidopsis thaliana with 4 samples.

Results

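The cDNA clones described here stood lowest after 10 h of thrips feeding. Of the 1182 clones on the array, 607 had a deposited log2 ratio of fed over untreated plants at all 4 feeding times, and 64 of these 607 were chosen. Each ratio was set against the median clone of its array. A clone was taken when its 10 h ratio lay at least 0.5 below the lowest of its ratios at 2, 5 and 24 h. Clones with all 4 ratios at 1 or more, or all at -0.8 or less, were left out, as were clones whose 2 h or 24 h ratio lay at least 0.5 above all others and 4 clones excluded by name. The margin alone was met by 119 of 607 clones (19.6%), and the exclusions removed 55 of them. The 4 clones excluded by name were already removed by the other conditions. The clones were thus chosen by their measured ratios at all 4 times, and their time course is a description without a test.

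The samples were above-ground parts of Arabidopsis thaliana Columbia-0 plants that were 21 days old. Fed plants carried 25 adult females of the western flower thrips each, starved for 3 h beforehand, for 2, 5, 10 or 24 h, and untreated plants were grown in parallel. RNA came from pools of 3 to 4 experiments, with 30 to 70 plants in a sample, per the labels, which also mention 2 to 3 arrays of the same RNA; 1 array per time was used here. Fed plants were labelled with Cy5 and untreated plants with Cy3 on every array, without a dye swap, so dye and treatment cannot be told apart. In whole shoots, fewer cells of a type and less RNA per cell cannot be told apart either.

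Western flower thrips pierce single plant cells and empty them, and Arabidopsis answers such feeding largely through the hormone jasmonate. Jasmonate signalling raises defence transcripts within hours and is also known to lower transcripts tied to growth, transport and primary metabolism. Many Arabidopsis transcripts also follow a daily rhythm, so the hour of sampling can matter in a time course. Whether the untreated plants were harvested at the same hour as the fed plants is not stated in the labels.

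Of the 64 clones, 20 have a gene name in the platform's table and 44 are known here only by their clone names. The named ones encode transporters, immune receptors, proteins of membranes and the cytoskeleton, metabolic enzymes and a few regulators. The leaf could not be checked by its markers, because 0 of 13 listed mesophyll genes are named on the array. Nor were 6 epidermal, 3 guard cell and 2 phloem markers. Of 6 root markers PYK10 was named, and its ratio was -0.17, 0.48, 1.85 and 3.00 log2 at 2, 5, 10 and 24 h; its part in the values of the 64 clones was not tested.

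The median of the 64 clones was -0.32, -0.33, -1.47 and -0.38 log2 at 2, 5, 10 and 24 h. The median of all 607 clones was -0.04, -0.04, -0.21 and -0.08. The 64 clones thus lay somewhat below the middle of the array at 2, 5 and 24 h and well below it at 10 h. Their ratios spanned -1.12 to 1.36 at 2 h, -2.52 to 1.21 at 5 h, -7.52 to 0.34 at 10 h and -2.29 to 1.19 at 24 h. At 10 h, 46 of 64 stood at -1 or lower, against 171 of all 607 clones. Of the 64, 19 stood at -2 or lower and 8 at -3 or lower.

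**Figure D1:**
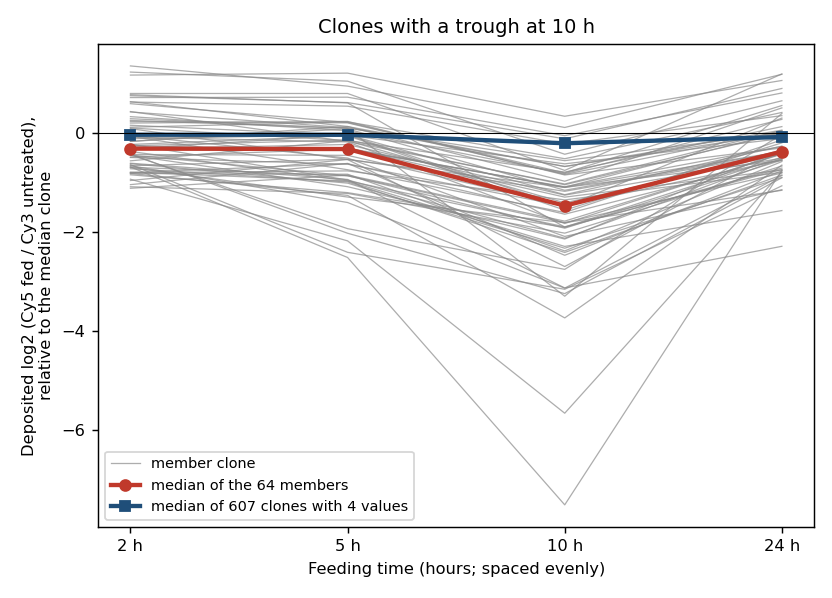
Deposited log2 ratios of fed (Cy5) over untreated (Cy3) plants relative to the median clone, by feeding time, with 1 grey line per clone, the median of the 64 clones in red and the median of the 607 clones in blue. The red median lies at -1.47 at 10 h and between -0.38 and -0.32 at the other times.

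The gap between the 10 h ratio and the next lowest one was 0.85 in the median and reached 5.00. It was at least 1 in 23 clones and at least 2 in 4. Most troughs were thus shallow, with 41 of 64 under 1. Just inside the margin lay RAFL08-08-P10, RAFL09-18-E15 and SEC, with gaps of 0.51, 0.51 and 0.52. Just outside lay RAFL07-15-G18, RAFL19-76-B13 and RAFL11-10-F22, with gaps of 0.49, 0.49 and 0.48.

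The trough took several forms. In 39 clones, 16 of them named, the ratio was below that of the median clone at all 4 times and lowest at 10 h. In 13 clones it was above the median clone at 2, 5 and 24 h and below it at 10 h, and among these AT5G54940 was named. AT1G74360 and the unnamed RAFL04-13-B02 stayed above the median clone at all times, and 10 clones had other orders. The next lowest time was 5 h in 32 clones, 24 h in 17 and 2 h in 15.

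Each of these signs is relative to the zero point of the array, and some of them change with it. Relative to lambda DNA spots the median tested clone itself lay at 0.66, 1.62, 1.19 and 1.13 log2 at 2, 5, 10 and 24 h, and relative to alpha tubulin spots at 0.84, 1.31, 0.94 and 1.71. In ratios computed from the scanner intensities with loess, 19 of the 20 named genes lay below 0 at 10 h, against 12 of 20 relative to lambda DNA and 15 of 20 relative to alpha tubulin. The lambda DNA and alpha tubulin ratios were made without loess. With median centring, also without loess, 19 of 20 lay below 0. "Below" in what follows means below the median clone, and the genes whose sign changes are named with their values. Folds of single clones in what follows are on the loess scale and so also against the median clone.

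Transporters made up 3 of the named genes. AT3G21670 encodes NPF6.4, of the nitrate and peptide transporter family. Its deposited ratio was -0.96, -0.54, -2.70 and -0.35 log2 at 2, 5, 10 and 24 h, a gap of 1.74, the widest among the named genes. Fed plants gave net intensities of 748, 1773.5, 232.5 and 862.5, against 1518, 1528.5, 938.5 and 880.5 in untreated plants. Net intensities here are scaled neither between arrays nor between the dyes. Fed and untreated values by themselves therefore do not give the sign of a ratio. At 5 h AT3G21670 was brighter in fed plants before centring, at a ratio of -0.54. After scaling, the fed level of AT3G21670 was 9.71, 9.92, 8.48 and 9.98 log2 intensity, against 10.81, 10.46, 10.39 and 10.26 in untreated plants, so the fed level was lowest at 10 h. The scanner ratio was -1.10, -0.54, -1.91 and -0.27, so fed plants stood 3.75-fold lower at 10 h, with an SD of 0.11 between spots. The 10 h ratio was -0.94 relative to lambda DNA and -1.19 relative to alpha tubulin.

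AT2G26690 encodes NPF6.2 of the same family. Its deposited ratio was -0.26, -0.33, -1.10 and 0.02 log2, a gap of 0.77. Its scanner ratio at 10 h was -0.79 with loess, but 0.26 relative to lambda DNA and 0.02 relative to alpha tubulin. One other gene of the family had 4 values, the glucosinolate importer GTR1, which stood at 0.96, 1.24, 1.13 and 0.95 and has no trough. The family as measured here therefore does not share one pattern. AT2G21340, of the MATE family of transporters, stood at -0.79, -0.97, -2.30 and -1.57, and remained low at 24 h. In scanner ratios AT2G21340 stood at -1.63 at 10 h and -1.42 at 24 h, a gap of 0.21.

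Immune receptors and a receptor kinase made up another 3. AT4G19500 and AT4G19510 are direct neighbours in the TAIR10.1 annotation and encode immune receptors of the TIR-NB-LRR type that act together against downy mildew in Arabidopsis. AT4G19500 stood at -0.69, -0.87, -1.81 and -0.81 log2 at 2, 5, 10 and 24 h. AT4G19510 stood at 0.10, -0.15, -0.79 and 0.13, close to the median clone except at 10 h. The gaps were 0.95 and 0.64. Both were printed in the same block of the array, in row 1 and column 3, where the middle clone was itself low at 10 h (-0.75). With loess within print blocks the gaps were -0.23 and 0.08, so 10 h was not the lowest time of AT4G19500. With centring on each block they were 0.08 and -0.16, so 10 h was not the lowest time of AT4G19510. The scanner ratio at 10 h was -1.34 for AT4G19500 and -0.70 for AT4G19510, and relative to lambda DNA it was -0.34 and 0.48. Relative to alpha tubulin AT4G19510 was also above 0, at 0.23. Long cDNA probes of related receptors can share signal.

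AT1G74360 encodes a leucine-rich repeat receptor kinase. It was the named gene with the highest ratios, at 1.17, 1.21, 0.34 and 1.06 log2. Fed plants gave 527, 1454, 496 and 519.5 net intensity, against 244, 373, 243.5 and 200 in untreated plants. Fed plants were brighter at every time. Its scanner ratio was 0.94, 1.23, 0.22 and 0.59.

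Proteins of membranes, vesicles or the cytoskeleton were encoded by 4 genes. PLIM2b, an actin-bundling LIM domain protein, stood at -1.05, -0.62, -2.47 and -0.76 log2, a gap of 1.43. Fed plants gave 368, 1243.5, 155.5 and 560.5 net intensity, against 791.5, 1131, 536 and 765 in untreated plants. At 10 h the fed channel was not above background. The loess ratio of PLIM2b there was -1.96, and it was -1.73 with median centring, -1.25 with no background subtraction and -0.54 relative to lambda DNA.

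AT2G45820 encodes a remorin, a plant protein of plasma membrane microdomains. It stood at -0.45, -0.86, -1.93 and -0.55 log2, and its net intensity was 544, 980, 354.5 and 857 in fed plants, against 772, 1058.5, 836 and 1007.5 in untreated plants. After scaling between arrays, its fed level was 9.39, 9.18, 8.88 and 9.97 log2 intensity, against 9.81, 9.90, 10.24 and 10.45 in untreated plants. The fed level was lowest at 10 h, and the untreated level was higher at 10 h than at 2 h. The scanner ratio of AT2G45820 at 10 h was -1.36, or 2.57-fold lower in fed plants. It was -0.37 relative to lambda DNA and -0.62 relative to alpha tubulin. CEF, a SEC24-type coat protein of vesicles leaving the endoplasmic reticulum, stood at -0.80, -0.77, -1.35 and -0.80. In scanner ratios CEF was almost flat, at -0.73, -0.63, -0.87 and -0.66, and relative to lambda DNA its 10 h ratio was 0.14. AT1G73390, with a BRO1 domain, stood at -1.12, -0.85, -1.78 and -0.43, and its scanner gap was 0.10.

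Enzymes made up 4 of the named genes. AT5G44020, of a family of acid phosphatases, stood at -0.61, -0.94, -3.14 and -2.29 log2, the lowest 24 h ratio of the 64 clones. Fed plants gave 1814, 8956.5, 983.5 and 2387 net intensity, against 2889, 10200.5, 5361 and 9396.5 in untreated plants. The ratio was low at both later times, with a deposited gap of 0.84 between 10 h and 24 h. The clone was printed in the block in row 1 and column 4. With loess within print blocks the gap was 0.15. It was 0.02 when the arrays were brought to the same median absolute deviation. At 10 h the scanner ratio put fed plants 7.14-fold lower. The 10 h ratio was -1.78 relative to lambda DNA and -2.03 relative to alpha tubulin.

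AT2G29360 encodes a short-chain dehydrogenase related to tropinone reductases. It stood at -0.62, -1.02, -2.33 and -0.90 log2, with net intensities of 677.5, 1826, 260 and 487.5 in fed plants, against 1087, 2190, 812 and 731 in untreated plants. Its scaled fed level was lowest at 10 h, at 8.55 log2 intensity, and the scanner ratio put fed plants 3.11-fold lower. The 10 h ratio was -0.65 relative to lambda DNA and -0.90 relative to alpha tubulin. AT1G17990 encodes a relative of the 12-oxophytodienoate reductases, the family that includes a step of jasmonate synthesis. Its ratio was -0.07, -0.74, -1.61 and -0.14, and its net intensity was 1076.5, 2805.5, 431 and 2210 in fed plants, against 1177, 2788, 815.5 and 1956.5 in untreated plants. The scaled levels of AT1G17990 at 10 h, 9.07 in fed and 10.22 in untreated plants, were the lowest of the 4 times in both channels. Its gap was 0.47 in scanner ratios with loess. With loess within print blocks it was -0.02, so 10 h was not the lowest time of AT1G17990. UGT72E1, which glucosylates coniferyl aldehyde, a precursor of lignin, stood at -0.32, -0.31, -1.30 and -0.75. Its scanner ratio at 10 h was -1.09 with loess and 0.06 relative to lambda DNA.

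The regulators and remaining genes were mixed. AT5G54940, a translation initiation factor of the SUI1 type, stood at 0.59, 0.21, -0.81 and 0.55 log2. Fed plants gave 2064.5, 15221, 1797.5 and 11445 net intensity, against 1427, 7795, 1951 and 6260 in untreated plants. At 10 h its 2 spots differed in sign before any centring: fed plants were brighter than untreated plants in 1 and dimmer in the other. Their loess ratios were -0.39 and -0.87. Relative to lambda DNA and to alpha tubulin its 10 h ratio was 0.40 and 0.16. AT5G54940 was printed in the block in row 1 and column 4. With loess within print blocks its gap was -0.25, so 10 h was not its lowest time. SEC, an O-linked N-acetylglucosamine transferase, stood at -0.66, -0.53, -1.18 and -0.41, and its 10 h scanner ratio was -1.07 with loess and 0.15 relative to lambda DNA.

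AT2G29670, a protein with tetratricopeptide repeats, stood at -0.23, -0.06, -1.56 and -0.20 log2, a gap of 1.33. Its net intensity was 863.5, 2112.5, 421 and 722 in fed plants, against 1057, 1303, 770.5 and 666.5 in untreated plants. The trough of AT2G29670 was thus nearly the whole of its course, with the other 3 ratios near the median clone. AT1G19110 stood at -0.72, -0.99, -2.42 and -0.85, with 1 usable spot at 10 h and the fed channel not above background. The loess ratio of AT1G19110 there was -2.11, and it was -1.61 with median centring and -0.42 relative to lambda DNA. AT1G19110 was printed in the block in row 1 and column 3. With loess within print blocks its gap was -0.51, so 10 h was not its lowest time. AT1G68440 stood at -0.64, -2.41, -3.16 and -1.07 and was at least 4.94-fold lower at 10 h on the loess scale. Its 10 h ratio was -0.79 relative to lambda DNA and -1.04 relative to alpha tubulin. AT1G68440 was already low at 5 h. AT1G23960 stood at -0.32, -0.23, -1.26 and -0.51, with 1 usable spot at 10 h; its scanner ratio there was -1.01 with loess, 0.29 relative to lambda DNA and 0.05 relative to alpha tubulin.

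**Figure D2:**
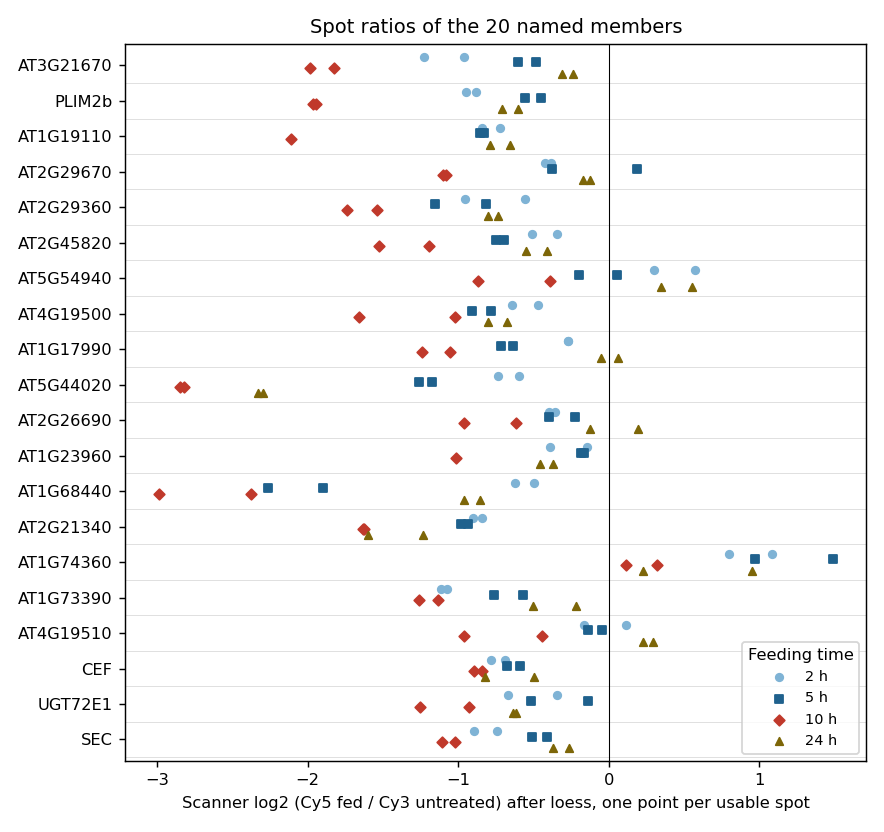
Scanner log2 ratios of fed (Cy5) over untreated (Cy3) plants after loess for the 20 named genes, 1 point per usable spot, coloured by feeding time and ordered by the deposited gap. The 10 h spots of AT3G21670 and PLIM2b lie apart to the left, while those of AT2G21340, AT1G73390 and CEF lie close to the spots of another time.

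In 58 of the 64 clones every usable 10 h spot lay below every usable spot of the other times, against 155 of all 607 clones (25.5%); 6 of the 64 had 1 usable 10 h spot. The rule used deposited ratios of the same arrays, so nothing is read from the count. The median SD between the 10 h spots of a clone was 0.11 log2. Spots of a clone share 1 array and 1 pair of RNA samples, so this spread is technical.

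The widest gaps belonged to clones without a gene name. RAFL05-13-J04 stood at -0.94, -2.18, -5.67 and -0.79 log2. Its net intensity was 9608.5, 15287, 947 and 30000.5 in fed plants, against 19152.5, 41188, 29881 and 41666.5 in untreated plants. This bright clone was above background in both channels at every time, and both 10 h spots gave nearly the same scanner ratio, an SD of 0.02 around -5.74. Fed plants were 53.6-fold lower at 10 h. RAFL07-13-A16 stood at -0.82, -1.26, -3.74 and -0.65, with 9389, 14646, 2191.5 and 7371.5 net intensity in fed plants, against 17263.5, 20854.5, 18177 and 9290.5 in untreated plants. It too was measured well above background and was 15.6-fold lower at 10 h.

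RAFL05-19-G24 had the widest gap of all, 5.00, at -0.69, -2.52, -7.52 and -0.76 log2. Its 10 h value sits at the floor of the deposited table, because the fed channel was below its local background. Net intensity was 794, 383.5, -93.5 and 1064 in fed plants, against 1331.5, 1304.5, 1356.5 and 1445 in untreated plants. After scaling, the fed level was 9.79, 7.97, 5.19 and 10.25 log2 intensity, against 10.64, 10.15, 11.40 and 10.96 in untreated plants. The fed level was lowest and the untreated level highest at 10 h, when fed plants were at least 14.4-fold lower on the loess scale. RAFL05-15-F19 stood at 0.25, 0.09, -3.30 and 0.39, and its loess ratio at 10 h was -2.34, from a fed channel not above background. RAFL05-20-N02 stood at -0.66, -1.41, -3.14 and -0.86 and was 6.75-fold lower. In all, 57 of the 64 clones had a fed channel above background at 10 h, against 579 of 607, and all 64 had such an untreated channel.

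The ratio can drop because the fed channel dims or because the untreated channel brightens. After scaling the channels of all arrays together, the median fed level of the 64 clones was 9.93, 10.50, 9.38 and 10.45 log2 intensity at 2, 5, 10 and 24 h. The median untreated level was 10.21, 10.62, 10.41 and 10.75. The fed level at 10 h minus the mean of the other times was -1.01 in the median of the 64 clones and -0.06 over all 607. The same difference for untreated plants was -0.07 in the 64 clones and 0.10 over all 607. The fed level was lowest at 10 h in 46 of 64 clones, against 145 of 607, and the untreated level was highest at 10 h in 15 of 64, against 191 of 607. The trough thus lay mainly in the fed channel. Since the rule used deposited ratios of the same channels, this is a description.

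**Figure D3:**
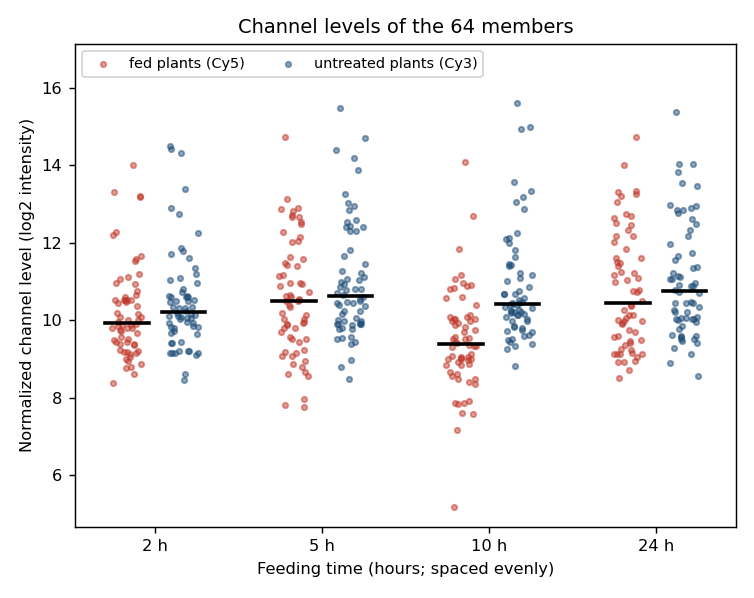
Normalized log2 channel intensity of the 64 clones by feeding time, fed plants (Cy5, red) left of untreated plants (Cy3, blue), with 1 point per clone and black bars for medians. The fed median is 9.38 at 10 h and 9.93 to 10.50 at the other times, while the untreated medians lie between 10.21 and 10.75.

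At single times, a clone was counted as lower when its scanner ratio was -1 or less in log2 (at least 2-fold), its usable spots all pointed the same way and the untreated channel, the brighter one, exceeded background. Of the 64 clones, 5 were lower in fed plants at 2 h, against 12.5% of all measured clones. At 5 h 13 were lower, against 15.8%. At 10 h 37 were lower, against 22.3%, and 24 h had 4, against 16.0%. Higher by the same measure were 1, 1, 0 and 1 of the 64 clones at 2, 5, 10 and 24 h, where 19.5%, 19.0%, 21.8% and 19.5% of all clones were counted. At 10 h 15 of the 20 named genes were counted lower, and AT1G74360 was the one named gene counted higher, at 5 h. The rule used deposited ratios of the same arrays, so nothing is read from the counts. No time had a second array to set beside it.

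Over the time course as a whole, limma called 30 of the 64 clones lower in fed plants (Benjamini-Hochberg adjusted p under 0.05), against 24.4% of the 806 clones tested, and 2 higher, against 22.6%. Without the 5 h array 7 were lower, against 14.0% of the clones tested, and 0 higher, against 16.5%. Without the 10 h array 16 were lower, against 18.4%, and 5 higher, against 20.0%. Relative to lambda DNA, 2 were lower, against 3.10%, and 27 higher, against 66.6%. These calls treat the 4 times as 1 group, and the same arrays chose the clones.

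The 10 h array differed from the others over all clones. The SD of deposited ratios over the 607 clones was 1.23, 1.48, 1.96 and 1.39 log2 at 2, 5, 10 and 24 h. The same margin was met below all other times by 49 clones at 2 h (8.07%), 12 at 5 h (1.98%), 119 at 10 h and 56 at 24 h (9.23%). The margin caught most clones at 10 h, the time with the widest spread, and fewest at 5 h, the time with the next widest. Whether the spread accounts for these counts was not tested. When the arrays were brought to the same median absolute deviation, 42 of the 64 clones still met the margin at 10 h, and 90 of 607 did over all clones. The median local background in Cy5 was also highest at 10 h, at 181, 237, 336 and 211 over the 4 times. Without background subtraction 30 of the 64 clones met the margin.

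The 64 clones were not spread evenly over the array, which was printed in 12 blocks. The block in row 1 and column 3 held 7 of its 26 clones (26.9%) and the block in row 1 and column 4 held 16 of 65 (24.6%). In the other 10 blocks the share was 1.92% to 13.4%. In the block in row 1 and column 4, the median deposited ratio was 0.20, 0.61, -0.12 and 0.55 log2 at 2, 5, 10 and 24 h, so its middle clone itself dipped at 10 h. With loess fitted within each print block, 2 of the 23 clones in these 2 blocks met the margin, against 19 of the other 41. For 63 of the 64 clones all spots lie in a single block, so place on the slide and gene cannot be told apart. The other, RAFL09-16-J23, is given because its spots lie in separate blocks and was picked after its values were seen. Its spots in row 1 and column 4 had loess ratios of 0.82 and 0.68 at 2 h, 0.70 and 0.77 at 5 h, -0.67 and -0.67 at 10 h, and 1.16 and 1.25 at 24 h. Its spots in row 2 and column 2 had 0.55 and 0.56 at 2 h, 0.07 and -0.03 at 5 h, -0.08 and -0.17 at 10 h, and 0.34 and 0.32 at 24 h. The same clone thus had a deep trough in the first block and, in the second, 10 h ratios just below those of 5 h. The deposited ratios by which it was chosen were 0.80, 0.80, -0.76 and 1.19, near those of the first block.

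**Figure D4:**
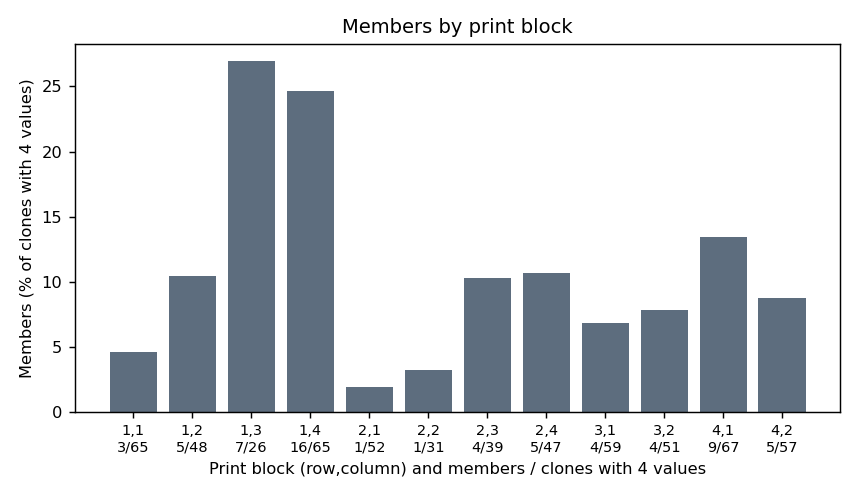
Share of the clones with 4 values in each print block that are among the 64, in percent, with the block's row and column and both counts under each bar. The blocks in row 1, columns 3 and 4 stand at 26.9% and 24.6%, and the other 10 blocks at 1.92% to 13.4%.

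How far a trough was kept also differed from gene to gene. From scanner ratios with loess over the whole array, 10 h was the lowest time in 63 of 64 clones and the margin was met by 41, against 13.2% of the 607 clones. Across 5 other settings (loess, loess within print blocks, centring on each block, arrays of equal spread, and no background subtraction) 14 clones met the margin in every one. AT3G21670 and AT2G29670 were the named genes among these 14, and RAFL05-19-G24, RAFL05-13-J04, RAFL05-15-F19, RAFL07-13-A16 and RAFL05-20-N02 were there too. CEF, SEC and 6 unnamed clones met it in none of the 5. With loess within print blocks, AT2G29360 and UGT72E1 joined AT3G21670 and AT2G29670 as the 4 named genes that met it.

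**Figure D5:**
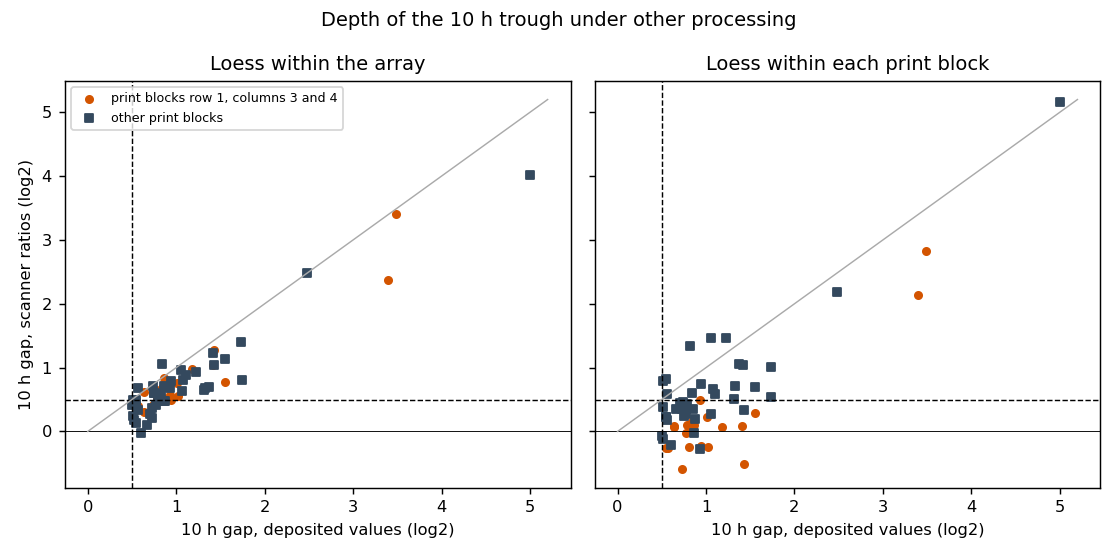
Gap in log2 between the 10 h ratio and the lowest other time in the deposited values (horizontal) and in scanner ratios (vertical), with loess over the array (left) and within each print block (right); dashed lines mark 0.5, and orange points are clones of the blocks in row 1, columns 3 and 4. On the left 41 of 64 clones reach 0.5 and on the right 21, where 2 of the 23 orange points do.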

How the data were processed

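The intensities in the deposited scanner files are linear foreground and background medians of each spot, with Cy3 as channel 1 and Cy5 as channel 2 per the file headers. The percent of a spot's pixels that were saturated, also deposited, was not used to drop spots. The deposited value table was taken to hold natural log ratios of Cy5 to Cy3, because across clones its columns followed that scanner ratio with slopes of 0.988, 0.984, 0.968 and 0.962 (r = 0.998, 0.997, 0.992 and 0.994); neither scale, centring nor direction is stated. Column medians were 0.301, 1.20, 0.606 and 0.861. The deposited values were divided by the natural log of the base to give log2 and centred on the median clone; these chose the clones. No genome build is stated, and no coordinates are printed.

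Scanner ratios used R 4.3.3 and limma 3.58.1: normexp background correction (offset 50), loess within each array with control spots at weight 0, and the mean over the spots with the good flag. Net intensity is foreground minus background; channel levels were scaled between arrays (Aquantile). A channel counted as above background when it exceeded it by 2 background SD in at least 50% of spots, and a fold against a channel that did not is given as a lower bound where its signal was under the lowest signal above background, and otherwise as the loess ratio. Usable ratios were obtained for 718, 857, 739 and 718 clones at 2, 5, 10 and 24 h, and the 1 array per time limits the precision. The 2 h and 5 h arrays share a slide, as do the 10 h and 24 h arrays, per the file headers. The limma intercept over the 4 arrays was tested on the 806 clones with a usable ratio, and above background, on at least 2 arrays. Without the condition on background 806 clones were tested too. The procedure was first tested on simulated data.

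Of 1196 probes, 416 have 1 gene symbol, 0 several and 780 none; 415 of the 1182 clones are named, 414 of them matched by identifier. Every named clone among the 64, the 5 unnamed ones with the widest gap and the 3 on each side of the margin are named. Word lists of 7 function groups matched 35 of 415 named clones and 0 of the 20 named here, since the tables give symbols and not product names. Promoter motifs were not searched. The clones, lists and rules were chosen with earlier results of these data known.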

Additional observations from a re-analysis of the deposited data

How the results depend on the processing

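Each array sets fed against untreated plants, so the ratios are paired by array. Each feeding time has 1 array, so no test within a time was possible. With the slide as a block, limma called 199 clones higher and 210 lower (24.7% and 26.1% of those tested), and 4 and 31 of the 64 clones. Of the 64 clones, the 10 h margin of 0.5 was met by 41 from scanner ratios with loess over all spots and by 41 with good spots above background. It was met by 21 with loess within print blocks, 30 with no background subtraction, 37 with mean pixels and 42 with arrays of equal median absolute deviation. A margin of 1 left 23. Of alternatives chosen after seeing the data, good spots with loess gave 41 and centring on each block gave 33. Another was to leave out the print blocks of row 1, columns 3 and 4. It left the 41 clones printed elsewhere, which meet the margin by the rule. Median centring (47), plain subtraction (49), lambda DNA (44) and alpha tubulin (58) as zero point kept more. Loess within print blocks put the lowest ratio at 10 h in 51 of 64. The limma count over all tested clones, 182 higher and 197 lower, was 537 higher and 25 lower relative to lambda DNA and 538 higher and 17 lower relative to alpha tubulin; leaving out 1 array gave 222 to 320 calls, the lowest without the 5 h array (120 higher, 102 lower). The counts of clones at least 2-fold lower (90, 135, 165 and 115 at 2, 5, 10 and 24 h) became 13, 11, 47 and 15 relative to lambda DNA and 6, 16, 61 and 3 relative to alpha tubulin, both chosen after seeing the data; of the 64 clones, 8 and 13 were then lower at 10 h, against 37. AT1G23960 at 10 h changed sign to 0.294 (lambda DNA) and 0.0462 (alpha tubulin), UGT72E1 to 0.0604 and SEC to 0.148 (lambda DNA). AT5G54940 (0.405), AT2G26690 (0.264), AT4G19510 (0.478) and CEF (0.141) also changed sign relative to lambda DNA. Of these, all but CEF did so relative to alpha tubulin too. The lambda DNA and alpha tubulin ratios were made without loess, so zero point and loess both differ there. The causes of these and of the other shifts were not tested. Dim fed signal limits the depth of 7 clones at 10 h.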
